A study of Homo sapiens with 4 samples.

Results

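The short arm of chromosome 21 and the ribosomal RNA genes together held 550 of the 534161 clusters of replicate 1, 156 of the 155848 clusters of replicate 2 and 21 of the 1717 clusters in the list that combines both replicates. A cluster is a stretch of the genome where reads pile up, and it was taken when it ended at or below position 11000000 of chromosome 21 (GRCh38), or when its midpoint lay in a RefSeq ribosomal RNA gene placed on any nuclear chromosome. In replicate 1 the arm gave 548 of these clusters, 36 lay in ribosomal RNA genes, and 2 of those were off the arm. In replicate 2 the arm gave 155, 21 lay in ribosomal RNA genes, and 1 of those was off the arm. All 21 combined clusters lay on the arm, 6 of them in ribosomal RNA genes. The rule uses position alone. The last cluster inside the limit ended at 10603635 in replicate 1 (log2 fold -0.15) and at 10585133 in replicate 2 (1.85), and the first beyond it began at 13112244 (-0.15) and 13925669 (2.44), so no cluster lay close to the limit.

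The libraries were enhanced crosslinking and immunoprecipitation (eCLIP) of ADAR from untreated K562 cells, a human leukemia line that the labels class as lymphoblast. An ADAR1 antibody gave 2 immunoprecipitated (IP) libraries, and 2 input libraries were made without it, 1 of each per replicate. Cells were irradiated at 254 nm with 400 mJ/cm2, RNase I shortened the RNA, and the part of the gel up to 75 kDa above the protein was cut out for sequencing. The labels leave it unsaid whether separate cultures gave the replicates. The protocols also mention HepG2, a liver line. Of 10 erythroid and K562 genes, 10 held clusters in replicate 1 and 9 in replicate 2, the exception being KLF1, an erythroid transcription factor, and of 7 hepatocyte genes none did in either.

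ADAR edits paired RNA by turning adenosine into inosine, and inverted repeats that pair within a transcript are its best known substrates. Ribosomal RNA is made in the nucleolus from tandem gene copies on the short arms of the acrocentric chromosomes, of which chromosome 21 is one. Each pre-rRNA holds, in order, the 5' external transcribed spacer (5' ETS), 18S, the first internal spacer (ITS1), 5.8S, the second internal spacer (ITS2), 28S and the 3' external spacer (3' ETS). The spacers are cut away as the ribosome is assembled. The 5S RNA is made elsewhere, from genes on chromosome 1, by RNA polymerase III. The genome build places 3 pre-rRNA units on the arm, RNA45SN2, RNA45SN3 and RNA45SN1, and 17 5S genes on chromosome 1. The units are near-identical copies, and the sources used here do not say how the authors placed reads that match several copies. The copy a cluster is assigned to is therefore uncertain throughout, and so is the exact place of clusters in other duplicated parts of the arm.

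Each deposited cluster carries the authors' log2 fold of IP over input and the −log10 of their p-value, which stops at 400. A cluster is called enriched below when its log2 fold was at least 3 and its −log10 p at least 3. Whole read numbers could be recovered from these values for 226 of the 550 clusters in replicate 1 and 128 of 156 in replicate 2, and they are given where known as IP against input reads. Intervals of a fold are exact 95% binomial intervals and cover counting error only. The recovered input of a cluster was low. Its median was 1 read in replicate 1, where 117 of the 226 clusters stood at 1, and 3 reads in replicate 2. An input of 1 may stand for a minimum set by the authors. The IP library was 3.33 times as deep as its input in replicate 1 and 0.553 times as deep in replicate 2, so the same read numbers give a higher fold in replicate 2. Total depths are not in the lists. With 1 value per cluster in each list, no test across replicates was made, and the p-values are the authors' own for single clusters. Neighbouring clusters can share reads and are not replicates of each other. Intervals of a share are exact 95% binomial intervals that count every cluster as independent, so they are too narrow where clusters touch.

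The one short arm promoter window with an enriched cluster was that of LINC01667, a long non-coding RNA gene whose surroundings held most of the enriched clusters of replicate 1. The window of TPTE, a testis-expressed phosphatase-like gene, had 2 clusters that were not enriched and is shown for contrast. Both windows are RefSeq sequence of GRCh38.p14, 300 bases each, on the strand of the gene, with the annotated start at base 251. LINC01667 is chr21:9821012-9821311 on the minus strand and TPTE chr21:10521333-10521632 on the plus strand. Capitals mark the bases covered by clusters of replicate 1.
LINC01667: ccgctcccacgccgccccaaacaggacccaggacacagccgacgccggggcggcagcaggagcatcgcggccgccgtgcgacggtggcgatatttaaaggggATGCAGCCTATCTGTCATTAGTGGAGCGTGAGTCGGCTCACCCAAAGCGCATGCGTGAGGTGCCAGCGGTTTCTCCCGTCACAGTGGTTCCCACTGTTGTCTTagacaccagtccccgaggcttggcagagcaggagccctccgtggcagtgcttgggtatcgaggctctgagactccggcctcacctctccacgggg
TPTE: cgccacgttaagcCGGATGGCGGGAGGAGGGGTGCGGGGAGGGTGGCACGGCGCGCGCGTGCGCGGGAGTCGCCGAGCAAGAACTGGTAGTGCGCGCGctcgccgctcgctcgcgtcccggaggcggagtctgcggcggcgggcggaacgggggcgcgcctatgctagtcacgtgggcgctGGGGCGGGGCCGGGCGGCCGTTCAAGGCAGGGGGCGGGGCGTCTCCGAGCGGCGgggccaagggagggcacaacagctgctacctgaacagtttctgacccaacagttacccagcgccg
In the LINC01667 window the cluster covered bases 103 to 205, upstream of the annotated start, with a log2 fold of 4.21 (185 IP against 3 input reads, −log10 p 16.8). In the TPTE window the clusters covered 139 bases and had log2 folds of 3.02 (−log10 p 1.94) and 1.97 (−log10 p 0.67). GC content was 64.7% for the LINC01667 window and 74.0% for TPTE, beside a median of 58.7% over 35116 promoter windows. The covered bases were 56.3% and 79.9% GC. Of 36 short arm genes with a promoter window, 5 were overlapped by a cluster of replicate 1 on either strand. An enriched cluster overlapped 1 of them, and a cluster of replicate 2 overlapped 0 of the 36. The share over all promoter windows was not computed, so these counts have no background to be read against. None of the 9 annotated miRNA genes of the arm was overlapped by any of the clusters.

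Enriched clusters numbered 105 of 550 in replicate 1, or 19.1% (exact 95% interval 15.9 to 22.6), where 1.39% of the whole list was enriched. The long arm of chromosome 21 gave 141 of 6769, or 2.08%. In replicate 2 they numbered 31 of 156, or 19.9% (13.9 to 27.0), where 12.8% of the whole list was enriched, and the long arm gave 227 of 1889, or 12.0%. The median log2 fold was 0.27 in replicate 1 against 0.07 for its whole list, and 2.44 in replicate 2 against 1.85. Most of the enriched clusters of replicate 1 lay in a single stretch. Without LINC01667 and its upstream side, 12 of 445 clusters were enriched, or 2.70% (1.40 to 4.66). The same step left 22 of 120 in replicate 2, or 18.3% (11.9 to 26.4), an interval that holds the share of the whole list.

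**Figure D1:**
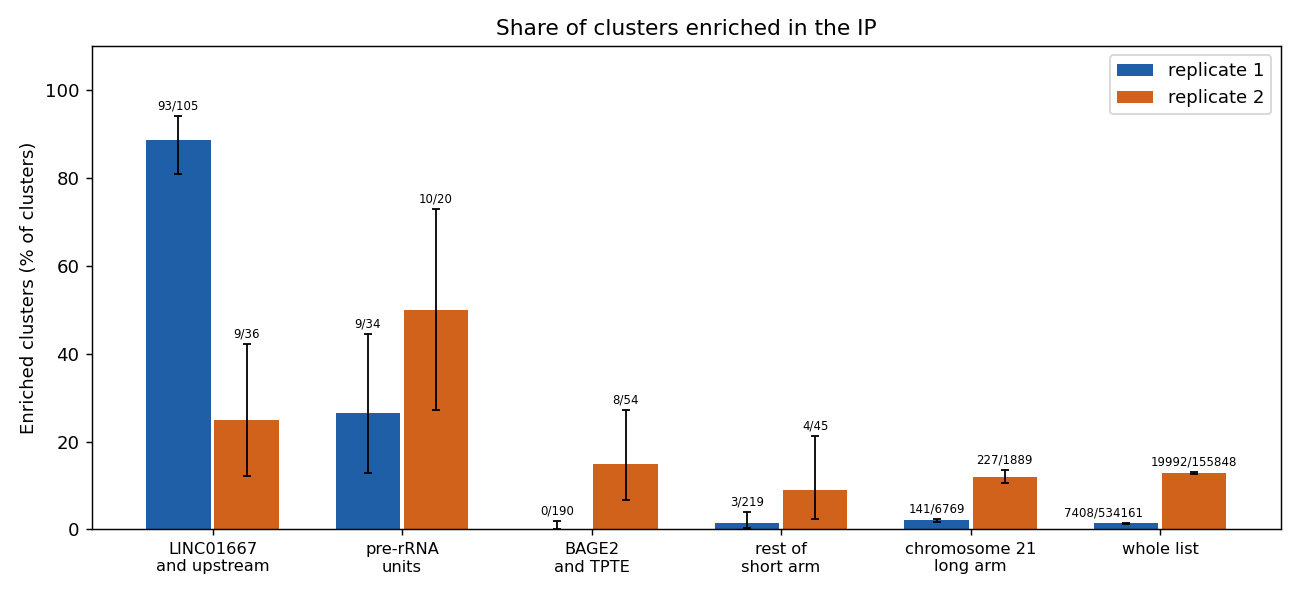
Percent of clusters enriched (log2 fold and −log10 p both at least 3) in each replicate for the classes of the short arm, the long arm and the whole list. Bars are shares, whiskers exact 95% binomial intervals, and the numbers above are enriched over all clusters. LINC01667 and its upstream side stood at 88.6% in replicate 1 and 25.0% in replicate 2.

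The pre-rRNA units held 34 clusters in replicate 1 and 20 in replicate 2, all on the plus strand, the strand of the units. Of these, 9 were enriched in replicate 1 (26.5%, interval 12.9 to 44.4) and 10 in replicate 2 (a share with an interval of 27.2 to 72.8%). With touching clusters of both replicates merged, the enriched clusters lay at 3 loci in replicate 1 and 6 in replicate 2. Median log2 folds were 1.78 and 2.95. Enriched clusters lay in the 5' ETS, ITS2 and 28S. In replicate 1 they were 3 of 11 in the 5' ETS, 0 of 3 in ITS2 and 6 of 17 in 28S, and in replicate 2 they were 7 of 9, 2 of 6 and 1 of 5. The 18S gene held 2 clusters and 5.8S held 1, all in replicate 1 and none enriched. No cluster of either replicate lay in ITS1 or the 3' ETS. Blacklisted regions were removed from the replicate lists per the labels, without a list of those regions in the sources used here. Among the copies, all 9 enriched clusters of replicate 1 were in RNA45SN3, which held 15 clusters, while RNA45SN1 held 14 and RNA45SN2 held 5. In replicate 2, 8 of 12 were enriched in RNA45SN3, 1 of 2 in RNA45SN1 and 1 of 6 in RNA45SN2.

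The 5' ETS of RNA45SN3 was enriched in both replicates at the same bases, chr21:8391747-8391796 on the plus strand, which are bases 2713 to 2762 of the unit. Replicate 1 had 3 clusters there, with log2 folds of 4.80 (93 against 1 reads, interval 2.29 to 10.12) and 3.84 for the other two (95 against 2 reads each, 1.94 to 6.90). Replicate 2 had 4, with log2 folds of 6.91, 6.99 and 7.0 at the ceiling of −log10 p and 5.93 (169 against 5 reads, 4.68 to 7.57). Replicate 2 was thus higher at every cluster of the site, although the interval of its one cluster with known reads overlaps those of replicate 1. A further cluster of replicate 2 just upstream, at bases 2703 to 2710, had 4.81 (31 against 2 reads).

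The highest log2 fold among all 155848 clusters of replicate 2 lay in the 5' ETS of RNA45SN1, at chr21:8435092-8435126, bases 1871 to 1905 of the unit. It was 9.08, from 299 IP reads and 1 input read, with an interval of 6.59 to 14.39 and a −log10 p of 131.8. Replicate 1 covered the same bases with 3 clusters of identical values, a log2 fold of 2.99 from 53 against 2 reads (interval 1.07 to 6.08, −log10 p 3.81). They lie just under the fold limit, the intervals of the replicates do not overlap, and the site is absent from the combined list. In RNA45SN2 the 5' ETS clusters lay further downstream. At bases 3407 to 3484 replicate 2 had 3.27 (16 against 3 reads) and replicate 1 had 2.07 at bases 3388 to 3458 (14 against 1 reads), with an interval of -0.64 to 7.48. At bases 3192 to 3246 the values were 1.59 and 1.85. The 5' ETS clusters of the copies therefore occupied different positions.

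ITS2 was covered at one position that recurred in 2 copies, and its fold had opposite signs in the replicates. In RNA45SN3 the clusters spanned bases 581 to 646 of ITS2 and in RNA45SN2 bases 582 to 651. Replicate 1 had log2 folds of -0.81 and -0.70 in RNA45SN3 and -1.22 in RNA45SN2, so the IP was below the input there after scaling for library depth. Replicate 2 had 3.04 (123 against 27 reads, interval 2.43 to 3.70), 3.12 (125 against 26, 2.5 to 3.79) and 2.56 (75 against 23, 1.87 to 3.3) in RNA45SN3. In RNA45SN2 it had 2.70, 2.68 and 2.63, all at the ceiling of −log10 p and below the fold limit. As ratios in lowest terms these 3 clusters hold at least 506, 1003 and 949 IP reads.

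Within 28S the clusters near its 5' end were the strongest. At bases 680 to 751 of the 28S gene of RNA45SN3, chr21:8397605-8397676, replicate 1 had 3.88 (245 against 5 reads, interval 2.64 to 5.52), 3.70 (259 against 6, 2.56 to 5.16) and 3.88 (342 against 7, 2.82 to 5.20). Replicate 2 had 3.25 (63 against 12, 2.34 to 4.27) over bases 683 to 758. These values differ by less than their counting error. A little downstream, at bases 1012 to 1054, replicate 1 had 4.61, 5.17 and 5.18 (162, 240 and 242 IP reads against 2 input reads each), and replicate 2 had no cluster. At bases 4750 to 4791, towards the 3' end, the values were 1.31 in replicate 1 (33 against 4 reads) and 0.56 in replicate 2 (9 against 11). In RNA45SN1 bases 4808 to 4848 gave 0.59 and -0.02. The 28S of RNA45SN2 had 1 cluster, in replicate 1, with 3.12 but a −log10 p of 2.12 (29 against 1 reads).

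**Figure D2:**
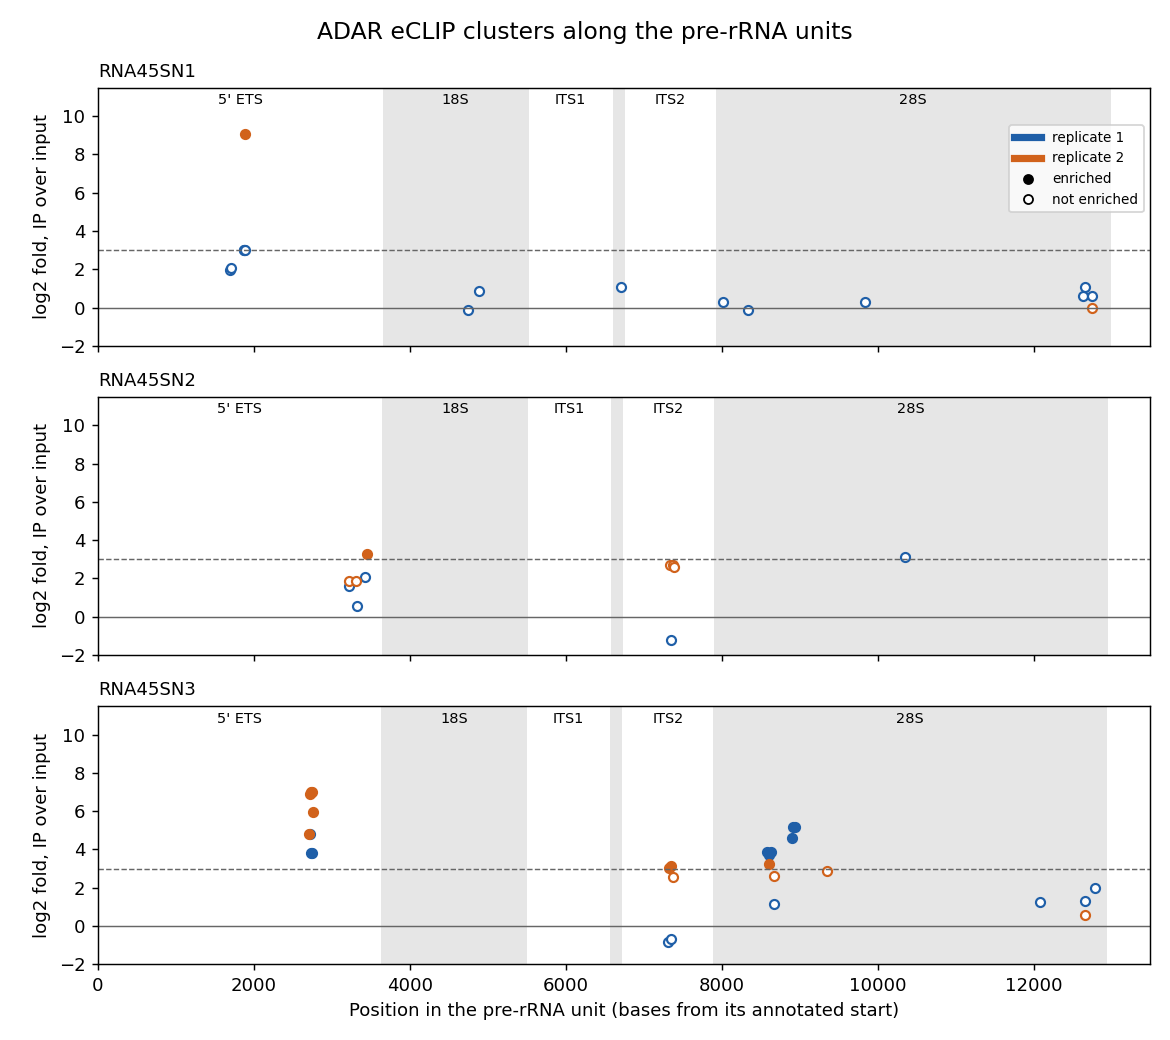
Log2 fold of IP over input of each cluster (y axis) against its position in bases from the start of the pre-rRNA unit (x axis), for the 3 copies. Blue is replicate 1, orange replicate 2, filled points are enriched, grey bands are the 18S, 5.8S and 28S genes and the dashed line is a log2 fold of 3. Both colours are filled in the 5' ETS and the 5' part of 28S of RNA45SN3, and the ITS2 points lie below 0 in replicate 1 and above 2.5 in replicate 2.

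Of the 17 5S genes, only RNA5S9 held clusters, and all lay on the minus strand. How reads matching several 5S genes were placed is not given, so the assignment to this gene is uncertain. Replicate 1 had log2 folds of -1.99 at chr1:228628176-228628189 and -2.13 at chr1:228628190-228628229. Replicate 2 had -2.56 at chr1:228628166-228628215. The input therefore exceeded the IP in both replicates, and none was enriched.

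LINC01667 and its upstream side held the largest block of enriched clusters. LINC01667 spans chr21:9781848-9821061 on the minus strand. In replicate 1, 105 clusters lay between 9810556 and 9837994, and 93 of them were enriched (88.6%, interval 80.9 to 94.0), with a median log2 fold of 4.21 and a range of 1.85 to 7.65. In replicate 2, 36 clusters lay between 9809842 and 9837296, and 9 were enriched (25.0%, interval 12.1 to 42.2, which holds the 12.8% of the whole list), with a median of 2.64 and a range of 0.27 to 4.31. All were on the minus strand, and the same span held 0 plus-strand clusters. Over clusters with known reads the IP sum was 17401 against 254 input reads in replicate 1 (101 clusters) and 733 against 240 in replicate 2 (35 clusters). The sums may count a read more than once.

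The block did not follow the annotated gene. The last 28 kb of LINC01667, at its lower coordinates, held no cluster of either replicate, and clusters ran on for 16.9 kb upstream of the annotated start, where no gene is annotated. The next annotated gene lies 81.3 kb beyond that start. Inside the gene, replicate 1 had 55 of 59 clusters enriched and replicate 2 had 3 of 21, while upstream they had 38 of 46 and 6 of 15. Clusters covered 15.2% of the span in replicate 1.

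The highest values of replicate 1 lay inside the gene. At chr21:9811783-9811794 the log2 fold was 7.65 (667 against 1 reads, interval 5.16 to 12.95), rank 8 among 534161 clusters, and the adjoining 9811795-9811872 had 6.36 (821 against 3, 4.81 to 8.64, −log10 p 87.3). Replicate 2 had 2.53 over 9811794-9811871 (−log10 p 3.59). At 9814864-9814932 replicate 1 had 6.19 (243 against 1 reads) and replicate 2 had no cluster. At 9816896-9816966 replicate 1 had 6.14 (234 against 1) where replicate 2 had 1.85. At 9820682-9820768 it had 5.90 (199 against 1) where replicate 2 had 3.08 (14 against 3). At 9820218-9820233 it had 5.78 (550 against 3) where replicate 2 had 3.00 (31 against 7, over 9820210-9820312). Where both replicates had a cluster at these sites, replicate 1 was higher. The sites were picked for their high values in replicate 1, so that order follows from the choice and is no comparison of the replicates.

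Upstream of the gene the deepest site was chr21:9823528-9823711, where the replicates differed in size. Replicate 1 had 6 clusters there with log2 folds of 4.87 to 5.21, 4 of them at the ceiling of −log10 p. Replicate 2 had a single cluster with 2.58 (129 against 39 reads, interval 2.05 to 3.14, −log10 p 27.7). At the far edge of the block replicate 1 had enriched clusters out to 9837994, while the last cluster of replicate 2 ended at 9837296. A site near that edge, 9837156-9837305, was enriched in both replicates, and its parts differed. In its first part replicate 1 had 3.32 (133 against 4 reads, interval 1.93 to 5.22) and 3.55 (195 against 5), and replicate 2 had 3.22 (31 against 6, 1.94 to 4.78) and 3.12 (24 against 5), values within counting error of each other. In the next part, at 9837226-9837287, replicate 1 had 4.35 (1218 against 18 reads, 3.68 to 5.11, −log10 p 71.9) and replicate 2 had 2.09 (101 against 43, 1.56 to 2.64, −log10 p 17.0). At 9823528-9823711 the interval of replicate 2 lay below all 6 replicate 1 values, and at 9837226-9837287 the intervals of the replicates did not overlap.

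Besides the site near the far edge, 3 upstream sites were enriched in both replicates. At 9821666-9821747 replicate 1 had 4.61 (243 against 3 reads, interval 3.04 to 6.89) and replicate 2 had 3.18 (60 against 12, 2.27 to 4.21). At 9829105-9829200 replicate 1 had 4.65 and 4.69 (250 and 258 IP reads against 3 input reads each) and replicate 2 had 3.10 (52 against 11). At 9834737-9834812 replicate 2 had 3.55 (13 against 2 reads), and replicate 1 had 4.84 at the touching clusters. The highest value of replicate 2 in the block was 4.31 at 9810554-9810620, from 11 against 1 reads, where replicate 1 had 3.59. At 9827702-9827794 replicate 2 had 3.79 (23 against 3 reads).

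**Figure D3:**
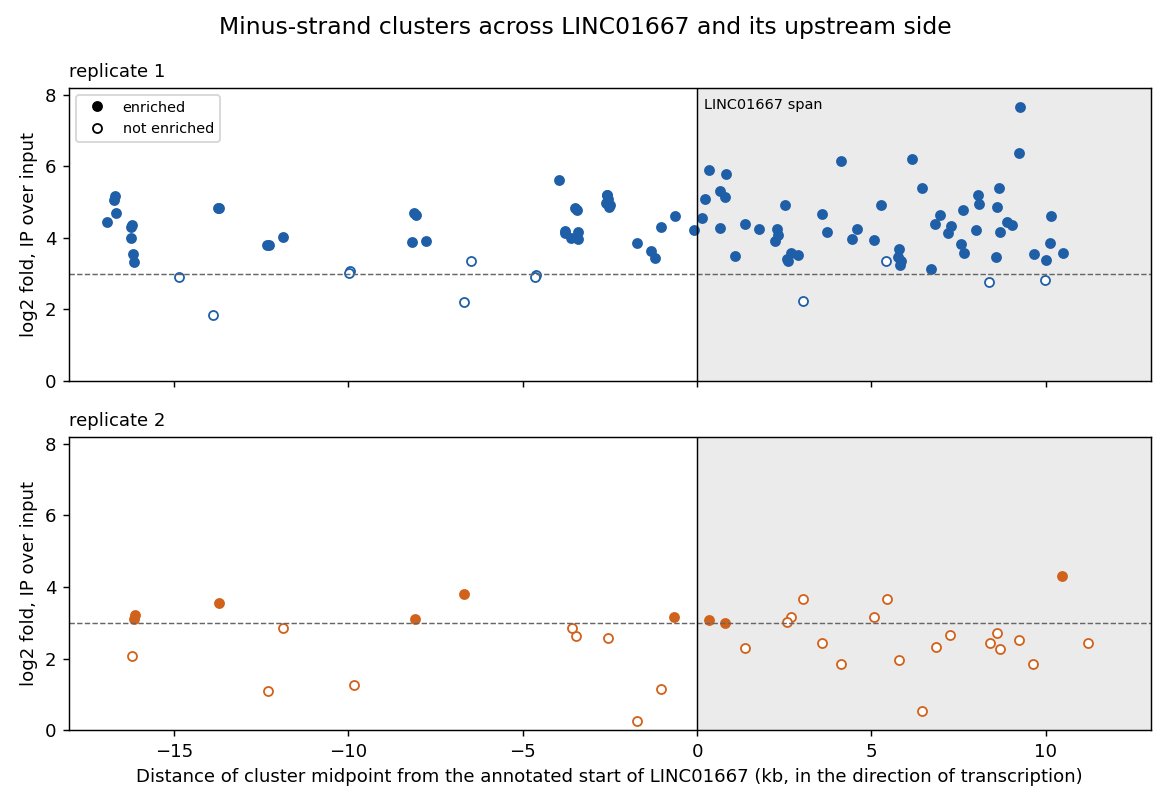
Log2 fold of IP over input (y axis) against the distance of each minus-strand cluster from the annotated start of LINC01667 in kb, upstream to the left (x axis), with replicate 1 above and replicate 2 below. Filled points are enriched, grey marks the gene and the dashed line a log2 fold of 3. In replicate 1, 93 of 105 points are filled on both sides of the start, and in replicate 2, 9 of 36.

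A pair of short minus-strand stretches near 5.1 Mb, between the genes LOC101928576 and LOC102724023 and in neither, were enriched in both replicates. At chr21:5107189-5107205 replicate 1 had 3.51 (38 against 1 reads) and at 5107206-5107298 it had 4.55 (78 against 1, interval 2.03 to 9.87). Replicate 2 had 7.26 over 5107186-5107275 (85 against 1 reads, 4.75 to 12.58, −log10 p 36.4), rank 94 in its list. In the combined list these clusters had 5.22 and 5.92. The second was the highest of the 21 combined clusters, at rank 134 of 1717, and the first, at rank 433, lay below the 3 of the 5' ETS of RNA45SN3. Of the surrounding clusters in no gene, 5110817-5110911 was enriched in replicate 1 at 3.51 (76 against 2 reads) and 5108435-5108512 in replicate 2 at 3.44 (12 against 2), where replicate 1 had 3.07 at a −log10 p of 2.13.

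BAGE2, annotated as a transcribed pseudogene and named for the B melanoma antigen family of cancer-testis genes, and TPTE held many clusters with low folds in replicate 1. All were on the plus strand. In replicate 1, 0 of 190 were enriched, with medians of -0.41 for the 131 in BAGE2 and 0.27 for the 59 in TPTE, and the highest value was 2.91 in BAGE2 at 10426782-10426855 (25 against 1 reads). In replicate 2, 7 of 45 were enriched in BAGE2 and 1 of 9 in TPTE, together 8 of 54, or 14.8% (interval 6.62 to 27.1), near the 12.8% of the whole list. The highest in BAGE2 were 4.97 at chr21:10477884-10477928 (52 against 3 reads, interval 3.34 to 7.29) and 4.94 at 10477855-10477883 (51 against 3). The other 5 had 3.33 to 3.71. The TPTE cluster had 4.18 from 10 against 1 reads.

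In the rest of the arm the enriched share was near that of the whole lists. Of 219 clusters in replicate 1, 3 were enriched (1.37%, interval 0.283 to 3.95, beside 1.39%), all near 5.1 Mb, with a median log2 fold of -0.06 over the class. Of 45 in replicate 2, 4 were enriched (8.89%, 2.48 to 21.2, beside 12.8%), with a median of 2.18. Beyond the 5.1 Mb site these were 10332560-10332626 at 4.18 (30 against 3 reads) and 10332627-10332678 at 4.13 (29 against 3), on the minus strand in no gene. Over the whole arm, 30 of the 119 annotated genes held a cluster in replicate 1 and 17 in replicate 2. An enriched one was held by 3 and 7, and all of these genes lay in the classes described above. In replicate 1 they were LINC01667, RNA45SN3 and a mature gene inside RNA45SN3, so that unit counts more than once. In replicate 2 they were LINC01667, BAGE2, TPTE, the pre-rRNA units and the same mature gene. No share over all genes of the lists is given for comparison. High folds with weak p-values stood in CDC27P10, a pseudogene, at 3.02 in replicate 1 (−log10 p 1.94) and LOC105372733 at 3.44 in replicate 2 (−log10 p 2.00). TEKT4P2, a pseudogene of the tektin family, had 2.68 with a −log10 p of 7.45 in replicate 2 and at most 0.59 in replicate 1. Just downstream of RNA45SN2, in no gene, replicate 1 had 1.06, 1.24 and 1.44 where replicate 2 had -1.26.

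The 21 combined clusters fell at 7 separate sites once touching ones were merged. They were 2 near 5.1 Mb, 3 in the 5' ETS and 3 in the 28S of RNA45SN3, and 13 upstream of LINC01667. Their log2 folds were 5.41 to 5.88 in the 5' ETS, 3.19 to 3.63 in 28S and 3.09 to 3.93 upstream of LINC01667. Their median was 3.75, beside 4.62 for the whole combined list. In span, 19 equalled a cluster of replicate 1 and 2 a cluster of replicate 2. All 21 overlapped an enriched cluster of replicate 1, and 12 also overlapped one of replicate 2. The other 9, all upstream of LINC01667 where the overlapping clusters of replicate 2 had 2.58 and 2.09, rest on replicate 1 for their enrichment. Of the short arm genes, only RNA45SN3 and its 28S gene held a combined cluster.

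Of the 105 enriched clusters of replicate 1, 60 were overlapped on the same strand by a cluster of replicate 2, or 57.1% (interval 47.1 to 66.8), and 64.0% of the enriched clusters in the whole list were. An enriched cluster of replicate 2 overlapped 19, or 18.1% (11.3 to 26.8), against 41.9% in the whole list. In the other direction, 30 of the 31 enriched clusters of replicate 2 were overlapped by a cluster of replicate 1, or 96.8% (83.3 to 99.9), against 88.4%. An enriched one overlapped 14, or 45.2% (27.3 to 64.0), against 14.0%. The lists differ in length and depth, so these shares are descriptions of the lists.

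Merging touching clusters of both replicates gave 513 loci, of which 108 held clusters of both, 377 of replicate 1 alone and 28 of replicate 2 alone. The order of the replicates differed by class. Over all clusters of the whole lists the median log2 fold was higher in replicate 2 (1.85, against 0.07 in replicate 1). At LINC01667 and upstream the highest fold of replicate 1 exceeded that of replicate 2 at 25 of 29 shared loci, with a median difference of -1.89 (replicate 2 minus replicate 1) and medians of 4.38 and 2.73. In BAGE2 and TPTE replicate 2 was higher at 31 of 34, with a median difference of 1.66, in the pre-rRNA units at 7 of 10, with 1.23, and in the rest of the arm at 28 of 34, with 1.33. Of the 60 loci at LINC01667 and upstream enriched in replicate 1, 34 held no cluster of replicate 2. Loci were merged only within this region, so no count of loci over the whole lists stands beside this one. At the level of clusters, 64.0% of all enriched clusters of replicate 1 were overlapped by a cluster of replicate 2. Enriched in both replicates were 10 loci, 7 at LINC01667 and upstream, 2 in RNA45SN3 and 1 near 5.1 Mb. What lies behind the difference between replicates at LINC01667 was not tested.

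**Figure D4:**
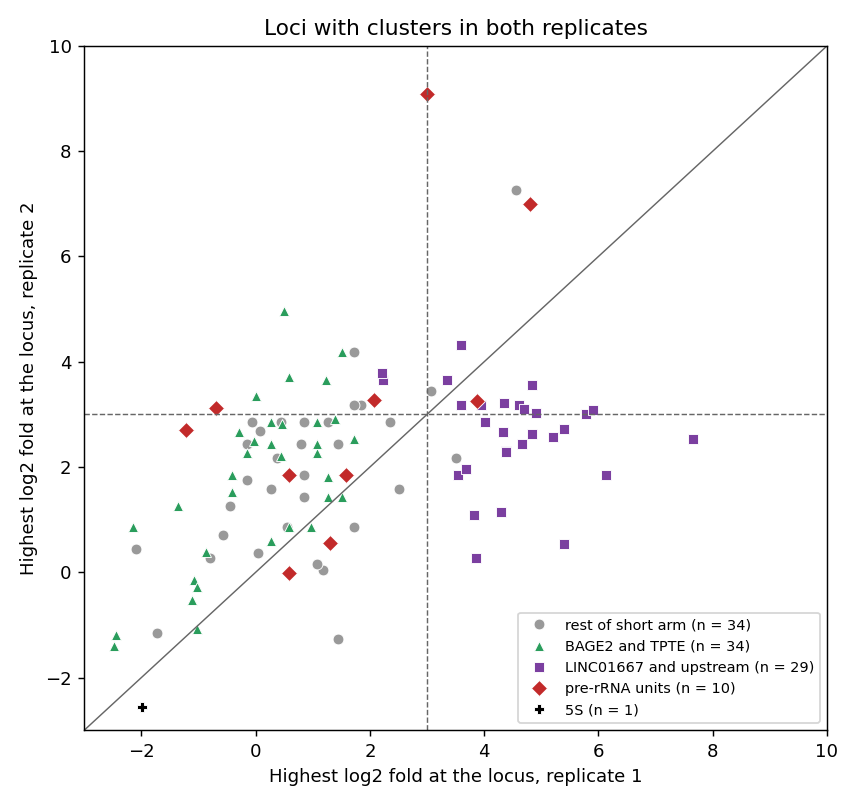
Highest log2 fold of IP over input at each of the 108 loci with clusters in both replicates, replicate 1 on the x axis and replicate 2 on the y axis, coloured by class. The solid line marks equal values and the dashed lines a log2 fold of 3. Of the 29 LINC01667 loci, 25 lie below the line of equal values, and 31 of 34 BAGE2 and TPTE loci lie above it.

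The genes of the proteins that make and process ribosomal RNA were read beside the ribosomal RNA itself. Clusters were counted over whole gene spans, introns included, and were not split into messenger RNA and other parts. Of 67 such genes, 14 held an enriched cluster in replicate 1 and 30 in replicate 2. The share of all genes holding one was not computed, so only the cluster shares below have a background. Replicate 1 had 56 enriched among the 2505 clusters of these genes, or 2.24% beside 1.39% of the whole list, and replicate 2 had 119 among 772, or 15.4% beside 12.8%. BOP1, a factor of large ribosomal subunit assembly named here after its values were seen, gave 26 of the 56 in replicate 1 and 0 of its 15 clusters in replicate 2, and without it the share of replicate 1 was 1.22%. Only 4 genes held combined clusters. UBTF, which organises ribosomal gene chromatin for RNA polymerase I, had 3 (up to 4.37), with 4 of 23 enriched in replicate 1 and 13 of 16 in replicate 2. TAF1D, a subunit of the polymerase I selectivity factor, had 2 (up to 4.34), with 1 of 56 enriched in replicate 1 and 3 of 20 in replicate 2. Its median log2 folds were -0.56 and -1.48. EXOSC10, a nuclease of the nuclear RNA exosome, had 1 (4.49), with 3 of 50 enriched in replicate 1 and 5 of 21 in replicate 2. GTF3C2, a subunit of the polymerase III factor TFIIIC, had 2 (up to 4.21), with 2 of 58 and 5 of 21.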

How the data were processed

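The authors deposited 1 cluster list per replicate and 1 list combining both replicates. Each cluster in the deposited lists has a log2 fold of IP over input and a −log10 p-value, both set by the authors. The submitters' processing notes name STAR 2.4.0i as well as cutadapt 1.9, without their settings. They give both hg19 and GRCh38, and the clusters reach position 83224967 on chromosome 17 and 64307486 on chromosome 20, past the hg19 ends of those chromosomes. Per the labels, duplicate reads and blacklisted regions were removed. The peak caller and the treatment of reads matching several places are not given in the sources used here. All 4 libraries enter through these lists, and 0 columns were left unmapped.

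Positions were set against RefSeq genes of GRCh38.p14, leaving out genes on unplaced scaffolds, among them 24 ribosomal RNA genes. Overlap meant at least 1 base on the same strand, except at promoter windows, where clusters of either strand were counted. The spacers are the parts of a pre-rRNA unit outside its mature genes. The upstream side of LINC01667 was taken as 20 kb. Read numbers were recovered by setting the commonest fold in each list to 3 IP reads against 1 input read and finding whole numbers that give the deposited fold and, within 0.02 or 0.2%, the deposited p-value. The p-value was taken as an exact binomial p where either number was under 5 and otherwise as a continuity-corrected chi-square p. This matched 234 of 234 clusters with a usable p in replicate 1 and 132 of 136 in replicate 2. The search was also run on simulated data made with the same p formula and known depths. That run could check only the search, not the setting of 3 reads against 1 or the authors' choice of test. Python 3.11.15, pandas 2.3.3, numpy 2.4.6, scipy 1.17.1 and matplotlib 3.10.9 were used.

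Clusters named are every combined one, the 5 highest folds and 5 highest −log10 p among the enriched in each replicate, the highest fold per ribosomal RNA gene type and short arm gene (those of low fold summarised) and the overlapping pairs enriched in both. Others are named for comparison with these and were chosen after their values were seen. Members, classes and gene lists were chosen with earlier results of these data known. Alternatives changed the fold and p limits, the overlap rule, the membership rule and the replicates used.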

Additional observations from a re-analysis of the deposited data

How the results depend on the processing

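Most counts depended on the fold limit and on how clusters were counted. With a log2 fold of at least 4, the enriched clusters numbered 66 in replicate 1 (105 as reported) and 13 in replicate 2 (31 as reported), and with a log2 fold of at least 2 there were 53 in replicate 2. Leaving out LINC01667 and its upstream side, merging touching clusters of both replicates into loci and leaving out BOP1 were chosen after seeing the data. They left 12 enriched clusters, 65 enriched loci and, for the ribosome production genes, 30 enriched clusters (56 as reported) in replicate 1. The 21 combined clusters became 7 sites when touching ones were merged. Taking the enriched clusters of a single replicate in place of the combined list gave 31 to 105, the lower value without replicate 1 and the upper without replicate 2. Requiring that the overlapping cluster be enriched as well moved the shared part of the enriched clusters to 18.1% in replicate 1 (57.1% with any cluster) and to 45.2% in replicate 2 (96.8%). The median log2 fold of replicate 1, 0.27 over all clusters, was 4.22 among those with a −log10 p of at least 3 and -0.58 among those whose ratio had a denominator of at least 5 in lowest terms. By construction each leaves fewer clusters. The other alternatives kept the counts within 1.5 times and moved the medians by less than 1.54, the standard deviation of the medians of both replicates. That figure reflects the gap between the replicates and is a loose limit.

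No paired analysis was possible because each list gives 1 value per cluster, already a comparison of the IP with the input of the same replicate number, and no test across samples was fitted. With an input of 1 to 3 reads behind many clusters, a fold in this region is known only within wide limits, and replicate differences smaller than those were not detectable at this depth.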
